A study of Mus musculus with 6 samples.

Results

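The genes described are the collagen genes outside the cartilage collagens, taken as every symbol of the form Col, a number, a and a number, without Col2a1, Col9a1, Col9a2, Col9a3, Col10a1, Col11a1 and Col11a2. The rule gave 37 of the 52081 genes that all 6 libraries list, and it left out 7 cartilage collagens. Their unique molecular identifiers (UMIs, 1 for each captured transcript) were compared across cell classes named from marker genes and across the genotype labels. A level is given in UMIs per 1000000 UMIs of a class in a library (CPM), with its SD over libraries. A 3′ library yields 1 UMI for a transcript of any length, so levels were also compared between genes without dividing by length.

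Cells came from femoral fracture calluses taken 14 days after fracture from mice described as male and 12 weeks old, with a 23-gauge needle as the pin. CON, labelled wt, comprised 3 libraries of Piezo1 f/f littermates. CKO, 3 libraries, carried Col2CreERT besides. The CKO genotype label spells the target Piezo3, whereas the design text names Piezo1. According to the methods, tamoxifen at 75 mg/kg was given to both groups on 5 consecutive days from day 5. This Cre is driven by Col2a1, so recombination is aimed at Col2a1-expressing cells and their descendants, not at all classes below.

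Collagens are trimers of polypeptide chains wound into a triple helix. Fibrillar collagens (types I, III, V, XXIV and XXVII among the genes here) build the banded fibrils of bone, ligament and scar, and fibril-associated collagens sit on their surface. Type IV forms the sheet of basement membranes, type VI forms beaded filaments around cells, type VIII forms short-chain networks, and the multiplexins XV and XVIII lie at basement membranes. In a callus, a soft repair tissue rich in type III collagen and cartilage gives way to bone, whose organic matrix is mostly type I collagen.

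Libraries held 57626530 to 103784364 UMIs, and 41652 cells were kept, from 3068 to 10025 a library. At most 0.383% of the barcodes of the smaller library were shared between any pair of libraries. Of the marker lists, 10 of 12 chondrocyte, 8 of 10 osteoblast, 4 of 5 osteoprogenitor, 7 of 7 tendon, 10 of 10 endothelial, 8 of 8 pericyte and 9 of 9 neutrophil genes were highest in the class of that name. The same lists had named the clusters, so this agreement partly follows from the naming. The names hypertrophic chondrocyte-like (3 of 7), inflammatory fibroblast-like (3 of 6), progenitor fibroblast-like (4 of 7) and periosteal-like (2 of 6) rest on fewer markers. Tendon-like cells were few, at 0.195% of cells in CON replicate 3, 0.619% in CKO replicate 1 and 0.160% in CKO replicate 2. Hypertrophic chondrocyte-like cells were 0.218% of cells in CON replicate 3 and 0.1995% in CKO replicate 2. Several libraries stood apart. CKO replicate 2 had 43 chondrocyte-like cells, 0.429% of its cells against 6.13% to 23.1% elsewhere, and 13.3% mature osteoblast-like cells against 0.714% to 5.18%. In replicate 1 of both groups, 45.6% of cells were stromal cells that stayed unnamed, most of them with few UMIs. CKO replicate 3 had 577.8 CPM of Xist, against at most 0.170 CPM elsewhere, and Ddx3y, a Y chromosome gene, was at 0 CPM, against 52.3 to 123 CPM elsewhere, although the mice are described as male. Doublet removal took the highest-scoring barcodes of each library.

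All 37 genes were listed in every library, and their mean levels in the class highest for each ran from 0.590 CPM for Col4a3 to 87080 CPM for Col1a1. In at least 1 class, 22 reached a mean of 100 CPM, and they are described one by one, whereas 15 stayed below. Of the 22, 6 were highest in mature osteoblast-like cells, 5 in inflammatory fibroblast-like cells, 4 in periosteal-like cells, 3 in endothelial-like cells, 2 in progenitor fibroblast-like cells, and 1 each in pericyte-like and non-hypertrophic chondrocyte-like cells. The range over libraries of the highest class lay wholly above that of the next class for 5 of the 22 (Col1a1, Col1a2, Col13a1, Col15a1 and Col24a1). Of these, Col13a1 and Col24a1 reached 100 CPM in no other named class. Collagen genes were kept out of the clustering that made the classes and out of the marker lists. Levels between classes of the same libraries are given as a description, with no test. The shares of all genes that are highest in a class, or keep 1 direction between classes, were not computed. Counts of collagen genes between classes thus do not set them apart from other genes.

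**Figure D1:**
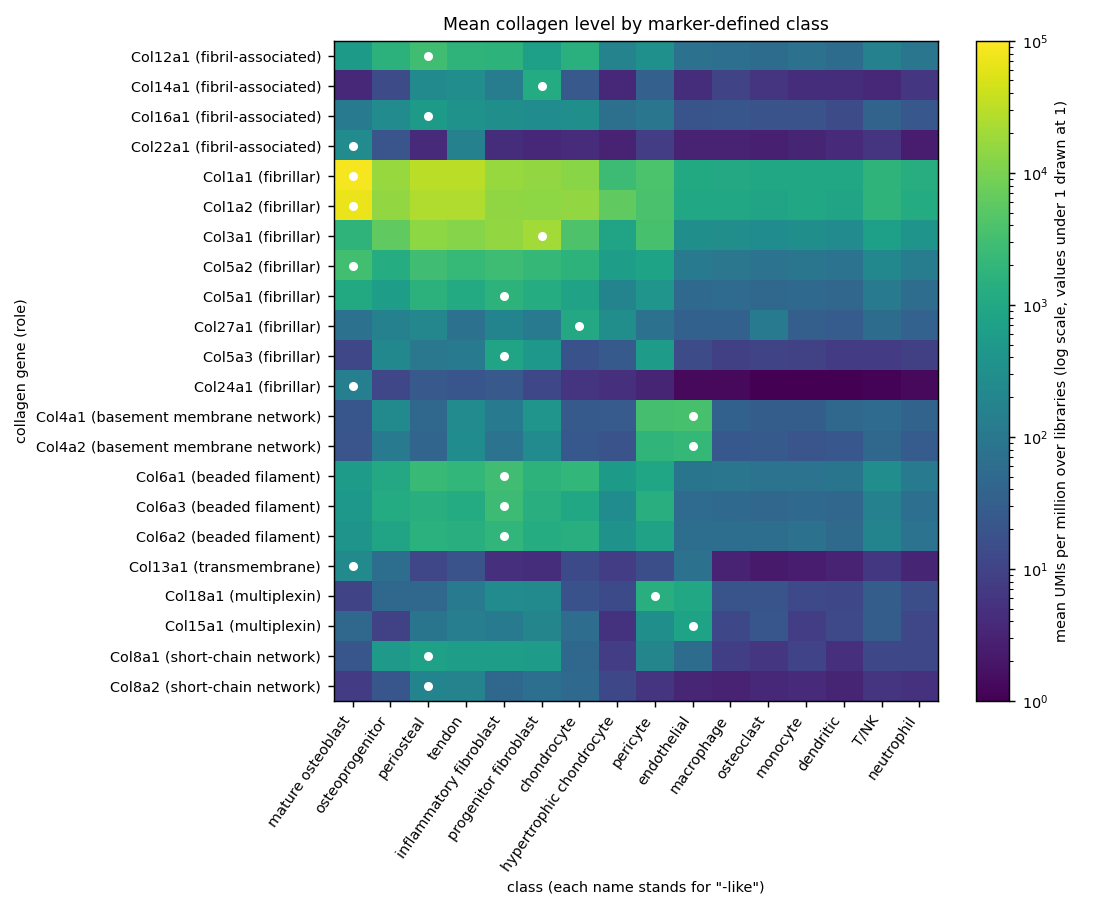
Mean level (CPM, colour on a log scale, values under 1 drawn at 1) of the 22 collagen genes that reached 100 CPM, by class, with genes in rows grouped by role. A white dot marks the highest class of each gene; 6 dots lie in the mature osteoblast-like column and 3 in the endothelial-like column.

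The sequence before the transcription start is shown for 4 genes. Col24a1, Col13a1 and Col15a1 are members whose levels stood apart in 1 class, and Col3a1 is their contrast from the fibroblast side. Each run holds the 250 bases before the RefSeq start on GRCm38.p6, 5′ to 3′ on the strand of the gene, and none overlaps an annotated exon. Capitals mark TATAAA on the strand shown. Col24a1 lies at chr3:145292222-145292471 (plus strand), Col13a1 at chr10:61979109-61979358 (minus strand), Col15a1 at chr4:47207762-47208011 (plus strand) and Col3a1 at chr1:45311288-45311537 (plus strand).
Col24a1: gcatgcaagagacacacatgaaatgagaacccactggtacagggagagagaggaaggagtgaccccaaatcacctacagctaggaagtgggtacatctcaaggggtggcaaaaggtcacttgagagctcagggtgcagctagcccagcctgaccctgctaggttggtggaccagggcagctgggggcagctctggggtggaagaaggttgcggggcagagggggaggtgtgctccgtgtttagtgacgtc
Col13a1: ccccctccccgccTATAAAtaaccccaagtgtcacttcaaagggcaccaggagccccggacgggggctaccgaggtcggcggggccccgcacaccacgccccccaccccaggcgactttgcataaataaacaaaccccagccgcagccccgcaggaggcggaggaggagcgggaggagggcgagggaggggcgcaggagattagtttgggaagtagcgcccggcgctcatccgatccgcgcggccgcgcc
Col15a1: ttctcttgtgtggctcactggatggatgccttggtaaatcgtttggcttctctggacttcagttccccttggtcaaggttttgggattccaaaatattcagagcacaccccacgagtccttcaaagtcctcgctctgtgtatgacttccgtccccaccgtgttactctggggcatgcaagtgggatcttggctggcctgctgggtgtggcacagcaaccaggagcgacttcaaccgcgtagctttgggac
Col3a1: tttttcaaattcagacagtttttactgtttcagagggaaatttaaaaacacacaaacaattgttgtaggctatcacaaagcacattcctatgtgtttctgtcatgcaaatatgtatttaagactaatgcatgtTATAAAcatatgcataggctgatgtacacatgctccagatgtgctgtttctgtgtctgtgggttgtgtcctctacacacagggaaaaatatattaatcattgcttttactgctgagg

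In Col3a1 the nearest TATAAA began 117 bases before the start, and in Col13a1 it began 237 bases before it. The Col24a1 and Col15a1 windows held neither TATAAA nor CCAAT nor GGGCGG on either strand. The table of promoters matched 30 of the 37 genes, and Col1a1, Col4a3, Col5a2, Col12a1, Col14a1, Col22a1 and Col26a1 had no entry. On either strand, GGGCGG (reverse complement CCGCCC, the GC box) was in 18 of the 30 windows, against 32.94% of the 27025 windows of all genes. CCAAT (reverse complement ATTGG) was in 11 of 30, against 34.46% of all. TATAAA (reverse complement TTTATA) was in 3 of 30, against 12.97% of all. TGTGGT (reverse complement ACCACA), a core that RUNX factors bind, was in 2 of 30, against 14.18%. Several of the 30 windows overlap annotated exons, such as those of Col1a2 and Col4a2 with 2 exons each. The windows of Col1a2, Col25a1 and Col27a1 lie inside the annotated gene. These matches are letters in a window and do not show binding.

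Mature osteoblast-like cells, led by Bglap, Ifitm5 and Dmp1, put the largest part of their RNA into these genes. The 37 genes took 16.7% ± 2.72 (SD, n = 6) of all UMIs there, with 20.4%, 17.7% and 16.0% in CON and 17.6%, 16.2% and 12.1% in CKO. Every library lay above the next class, the periosteal-like cells, in the same library (8.43% ± 2.20, n = 6). In osteoprogenitor-like cells, which Mmp9 and Gdpd2 led, the share was 4.72% ± 1.72 (n = 6).

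Col1a1 encodes the chain that is present in pairs in each type I collagen trimer. Its level in mature osteoblast-like cells was 109710, 88577 and 85884 CPM in CON and 95810, 80181 and 62319 CPM in CKO, a mean of 87080 CPM ± 15829 (n = 6). The next class was the tendon-like class at 30354 CPM ± 12388 (n = 6), and the ranges did not overlap. Col1a2, the other chain of type I collagen, averaged 70851 CPM ± 12439 (n = 6) in mature osteoblast-like cells and 25120 CPM in tendon-like cells. UMIs of Col1a1 per UMI of Col1a2 ranged from 1.04 to 1.41 in mature osteoblast-like cells, from 0.612 to 1.21 in non-hypertrophic chondrocyte-like cells and from 0.279 to 0.593 in hypertrophic chondrocyte-like cells. The lowest ratio of the osteoblast class thus exceeded the highest of the hypertrophic class.

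Col24a1, a fibrillar collagen known from developing bone, was low but steep. It had 257, 180 and 92.5 CPM in CON and 150, 103 and 86.7 CPM in CKO in mature osteoblast-like cells, and 25.3 CPM on average in the next class, periosteal-like cells (16.4 to 50.1). Col13a1, a transmembrane collagen of cell adhesion sites, reached 251 CPM ± 30.4 (n = 6) in mature osteoblast-like cells, with values from 223 to 297 CPM. Its next class was endothelial-like cells at 77.1 CPM ± 31.7 (n = 6). Col22a1, a fibril-associated collagen known from the junction of muscle and tendon, was at 255 CPM ± 57.1 (n = 6) in mature osteoblast-like cells. In tendon-like cells, Col22a1 averaged 157 CPM but ran from 7.34 in CON replicate 3 to 342 in CKO replicate 3, so the classes overlapped. Col5a2, a chain of type V collagen, which nucleates type I fibrils, was at 3018 CPM ± 434 (n = 6) in mature osteoblast-like cells and at 2871 CPM in periosteal-like cells, with overlapping ranges.

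Set against osteoprogenitor-like cells of the same library, all 22 genes kept 1 direction in all 6 libraries. Of these, 8 were higher in mature osteoblast-like cells and 14 were lower. Col13a1 and Col24a1 entered the 22 through the mature class alone, so their higher level there partly follows from that choice. The share of all genes that kept 1 direction between these classes was not computed. The mean log2 difference, on the log2(CPM + 1) scale, was 3.58 for Col24a1 (SD 0.83), 3.57 for Col22a1 (SD 0.33), 2.42 for Col1a1 (SD 0.41), 2.20 for Col1a2 (SD 0.43), 2.07 for Col13a1 (SD 0.61), 2.06 for Col15a1 (SD 0.98), 1.34 for Col5a2 (SD 0.39) and 0.90 for Col5a1 (SD 0.38). The 14 on the other side were led by Col8a1 at -4.53 (SD 0.77), Col5a3 at -4.47 (SD 1.12) and Col4a1 at -3.46 (SD 0.96). They also held the type VI genes and Col3a1, at -1.80 (SD 0.63). In mature osteoblast-like cells Col8a1, Col5a3 and Col4a1 averaged 21.5, 11.7 and 21.6 CPM, beside 12.4, 8.86 and 38.5 CPM in neutrophil-like cells. Col4a2, Col14a1 and Col18a1, also among the 14, were there below their neutrophil-like means. The size of these differences thus rests on values near the background given below.

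The genes with the steepest difference were thus not the most abundant ones. Col24a1 was at 11.4 CPM ± 5.92 in osteoprogenitor-like cells and Col22a1 at 21.2 CPM ± 7.05 (n = 6 each), whereas Col8a1 was at 503 CPM ± 178 there and at 21.5 CPM ± 9.26 in mature osteoblast-like cells. Col5a3, the third chain of type V collagen, was at 216 CPM ± 46.3 and 11.7 CPM ± 9.17. Across the osteoblast lineage the chains of type V collagen therefore did not move together: Col5a1 and Col5a2 were higher in the mature class and Col5a3 was lower, in 6 of 6 libraries each.

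**Figure D2:**
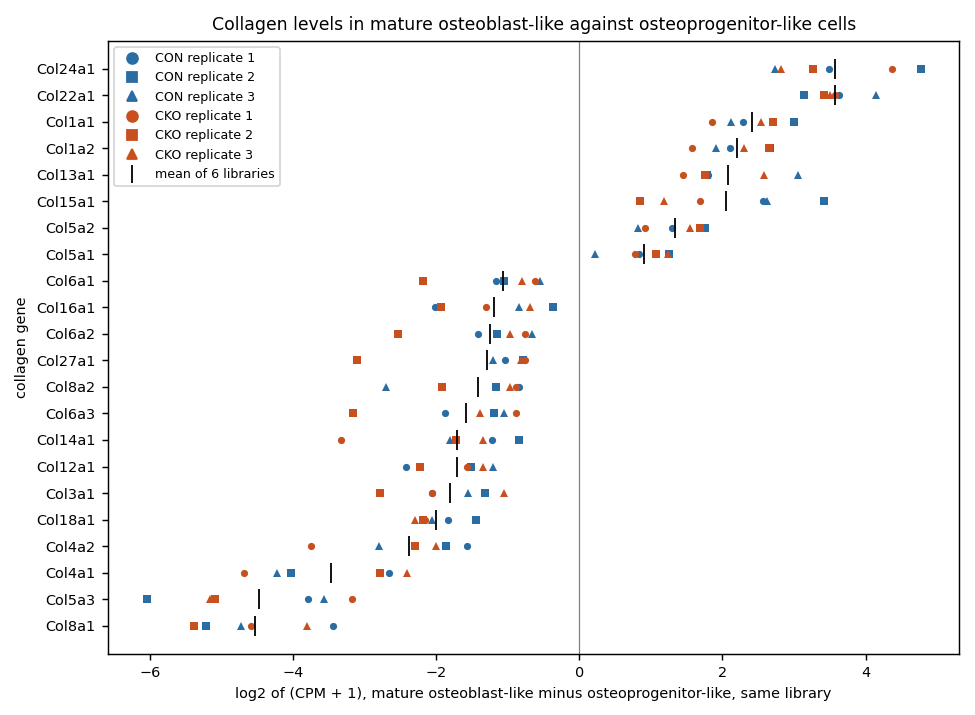
Difference in log2(CPM + 1) between mature osteoblast-like and osteoprogenitor-like cells of the same library for 22 collagen genes, with 1 marker per library and a black tick at the mean of 6. The markers of each gene fall on 1 side of 0, with 8 genes to the right and 14 to the left, from Col8a1 at -4.53 to Col24a1 at 3.58.

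Col3a1, the single chain of type III collagen, was highest in progenitor fibroblast-like cells, which Clec3b, Dpt and Pi16 led. It had 25474, 22843 and 23015 CPM in CON and 19486, 18799 and 13518 CPM in CKO there, a mean of 20523 CPM ± 4224 (n = 6). The inflammatory fibroblast-like class followed at 15625 CPM ± 7772 (n = 6), with ranges that overlapped. In mature osteoblast-like cells Col3a1 was at 1813 CPM ± 1223 (n = 6), and in CKO replicate 2 it was at 204 CPM.

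Setting Col3a1 beside Col1a1 set mature osteoblast-like cells apart, while neighbouring stromal classes overlapped. The median ratio of Col3a1 to Col1a1 UMIs over libraries was 1.32 in progenitor fibroblast-like cells (1.08 to 1.85) and 0.820 in inflammatory fibroblast-like cells (0.592 to 1.49). It was 0.422 in periosteal-like cells (0.373 to 0.666) and 0.313 in osteoprogenitor-like cells (0.115 to 0.573). In mature osteoblast-like cells it was 0.0192 (0.00255 to 0.0452), and no library of that class reached the lowest library of any stromal class named here.

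**Figure D3:**
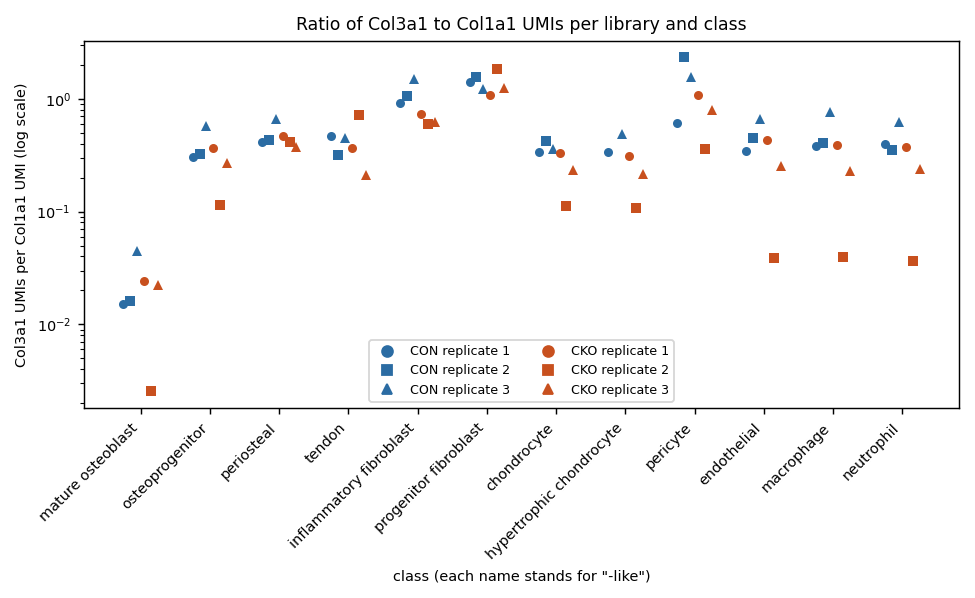
Ratio of Col3a1 UMIs to Col1a1 UMIs (log scale) for each library, by class, with CON in blue, CKO in orange and marker shapes for replicates. Mature osteoblast-like libraries lie between 0.00255 and 0.0452 and progenitor fibroblast-like libraries between 1.08 and 1.85, and CKO replicate 2 lies at 0.0386, 0.0393 and 0.0365 in endothelial-like, macrophage-like and neutrophil-like cells.

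The fibril-associated collagens divided the fibroblast classes. Col12a1, the collagen XII chain, was highest in periosteal-like cells, which Ccn3, Aspn and Ogn led, with 3880, 3084 and 2878 CPM in CON and 4006, 1767 and 2094 CPM in CKO. Col14a1, the collagen XIV chain, was highest in progenitor fibroblast-like cells, with 1746, 1465 and 525 CPM in CON and 1120, 1152 and 1157 CPM in CKO. Within libraries these near relatives went opposite ways: relative to periosteal-like cells, progenitor fibroblast-like cells had a log2(CPM + 1) difference of 2.37 in Col14a1 and -2.25 in Col12a1, each in 6 of 6 libraries. Col16a1, another fibril-associated collagen, followed Col12a1, with 526 CPM ± 95.5 (n = 6) in periosteal-like and 265 CPM in progenitor fibroblast-like cells.

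Altogether 6 of the 22 genes were higher in progenitor fibroblast-like than in periosteal-like cells in every library, namely Col3a1, Col4a1, Col4a2, Col5a3, Col14a1 and Col18a1, and 7 were lower. The 2 type VIII genes were both highest in periosteal-like cells. Col8a1 had 712 CPM ± 281 and Col8a2 had 182 CPM ± 43.7 (n = 6 each), but inflammatory fibroblast-like cells held 637 CPM of Col8a1 and only 49.8 CPM of Col8a2. Tendon-like cells differed from periosteal-like cells in every library by more Col22a1 (log2 difference 5.03), Col4a1 and Col4a2 and by less Col16a1 and Col27a1. The tendon-like values of CON replicate 3, CKO replicate 1 and CKO replicate 2 rest on few cells.

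Type VI collagen is assembled from 3 chains into beaded filaments, and the 3 main chains shared their highest class, the inflammatory fibroblast-like cells, which Mmp3, Cxcl5 and Saa3 led. Col6a1 was at 2906 CPM ± 742, Col6a2 at 1955 CPM ± 602 and Col6a3 at 2676 CPM ± 918 (n = 6 each). For Col6a3 the class exceeded the next one, pericyte-like cells at 1398 CPM, in 6 of 6 libraries, whereas Col6a1 and Col6a2 exceeded periosteal-like cells in 4 of 6. Without integration of the libraries, Col6a1 and Col6a2, but not Col6a3, were highest in tendon-like cells. UMIs of Col6a3 per UMI of Col6a1 ran from 0.402 to 0.823 in non-hypertrophic chondrocyte-like cells and from 1.11 to 1.88 in pericyte-like cells. In the same class, Col5a1 was at 1722 CPM ± 601 and Col5a3 at 837 CPM ± 386 (n = 6 each).

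Col5a3 was the type V gene with the most uneven use. In pericyte-like cells it exceeded Col5a1, with 1.17 to 2.59 UMIs of Col5a3 per UMI of Col5a1, and in mature osteoblast-like cells this ratio was 0.00309 to 0.0161. Pericyte-like cells had 538, 607 and 638 CPM of Col5a3 in CON and 629, 586 and 563 CPM in CKO, a narrower spread than in inflammatory fibroblast-like cells, where it ran from 331 to 1396 CPM.

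Basement membrane genes marked the vessel classes. Col4a1 and Col4a2 encode the chains of the most widespread type IV collagen and lie head to head on chromosome 8, where their annotated ends overlap by 22 bases. Col4a1 was at 4313, 3039 and 3195 CPM in CON and 4316, 2863 and 2885 CPM in CKO in endothelial-like cells, a mean of 3435 CPM ± 692 (n = 6). In pericyte-like cells it was at 3344 CPM ± 657 (n = 6), and the endothelial-like value was the higher one in 2 of 6 libraries. The classes thus did not differ in Col4a1 beyond the spread. Col4a2 was higher in endothelial-like cells in 6 of 6 libraries, though by only 0.19 on the log2 scale (2125 CPM ± 382 against 1848 CPM ± 250). Outside the vessels Col4a1 was highest among the stromal classes in progenitor fibroblast-like cells at 408 CPM and was at 48.8 CPM ± 3.47 (n = 6) in periosteal-like cells.

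The multiplexins separated what type IV did not. Col15a1, a proteoglycan-type collagen of vessel and muscle basement membranes, had 902, 947 and 787 CPM in CON and 899, 598 and 671 CPM in CKO in endothelial-like cells, against 309 CPM ± 107 (n = 6) in pericyte-like cells, with ranges apart. Col18a1, whose C-terminal fragment is endostatin, went the other way in 6 of 6 libraries, with 1017 CPM ± 207 in endothelial-like and 1422 CPM ± 322 in pericyte-like cells. Of the 22 genes, 3 were higher in endothelial-like cells in every library (Col4a2, Col13a1 and Col15a1). In pericyte-like cells 14 were higher in every library, led by Col5a3 (log2 difference -5.47) and Col6a3 (-4.70). Col5a3 and Col6a3 averaged 13.8 and 57.2 CPM in endothelial-like cells, beside 8.86 and 67.5 CPM in neutrophil-like cells. Apart from Col5a3 and Col18a1, the genes among the 14 were in endothelial-like cells below their neutrophil-like means. The size of these differences, except that of Col18a1, thus rests on values near the background given below.

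Among endothelial-like clusters, Col8a1 and Col15a1 marked different ones. Col8a1 was at 111 to 475 CPM over libraries in the cluster led by Stmn2 and Gja4, a gap junction gene of arteries, and no library exceeded 71.3 CPM in any other endothelial-like cluster. Col15a1 was at 963 CPM (625 to 1276) in the largest cluster (3038 cells, led by Plvap and Emcn, genes of capillaries and sinusoids). It was at 958 CPM in a smaller cluster led by the same genes and at 617 CPM in that led by Selp. In the Stmn2 and Gja4 cluster it was at 596 CPM and in that led by Gpihbp1 at 323 CPM (35.6 to 633). All these ranges overlapped that of the largest. Col15a1 was at 13.6 CPM in the cluster led by Ccl21a and Mmrn1, genes of lymphatic vessels, which 3 libraries held. Col18a1 was at 781 CPM and Col4a1 at 900 CPM in that cluster, so the other vessel genes were present there.

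Col27a1, a fibrillar collagen of cartilage that the rule retained, was the 1 gene of the 22 that was highest in chondrocyte-like cells. Non-hypertrophic chondrocyte-like cells, led by Ucma, Hapln1 and Snorc, had 1511, 1167 and 749 CPM in CON and 1676, 277 and 995 CPM in CKO, and hypertrophic chondrocyte-like cells followed at 291 CPM ± 190 (n = 5, CON replicate 2 having too few cells). In CKO replicate 2, the value rests on 23 cells. Of the 22 genes, none was higher in hypertrophic than in non-hypertrophic chondrocyte-like cells in all 5 libraries, and 15 were lower, Col27a1 by 1.99, Col12a1 by 2.82 and Col1a1 by 2.32 on the log2(CPM + 1) scale. How many of all genes did so was not computed. The share of all UMIs that the 37 genes took was 4.28% ± 1.84 (n = 6) in non-hypertrophic and 1.23% ± 0.41 (n = 5) in hypertrophic chondrocyte-like cells.

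**Figure D4:**
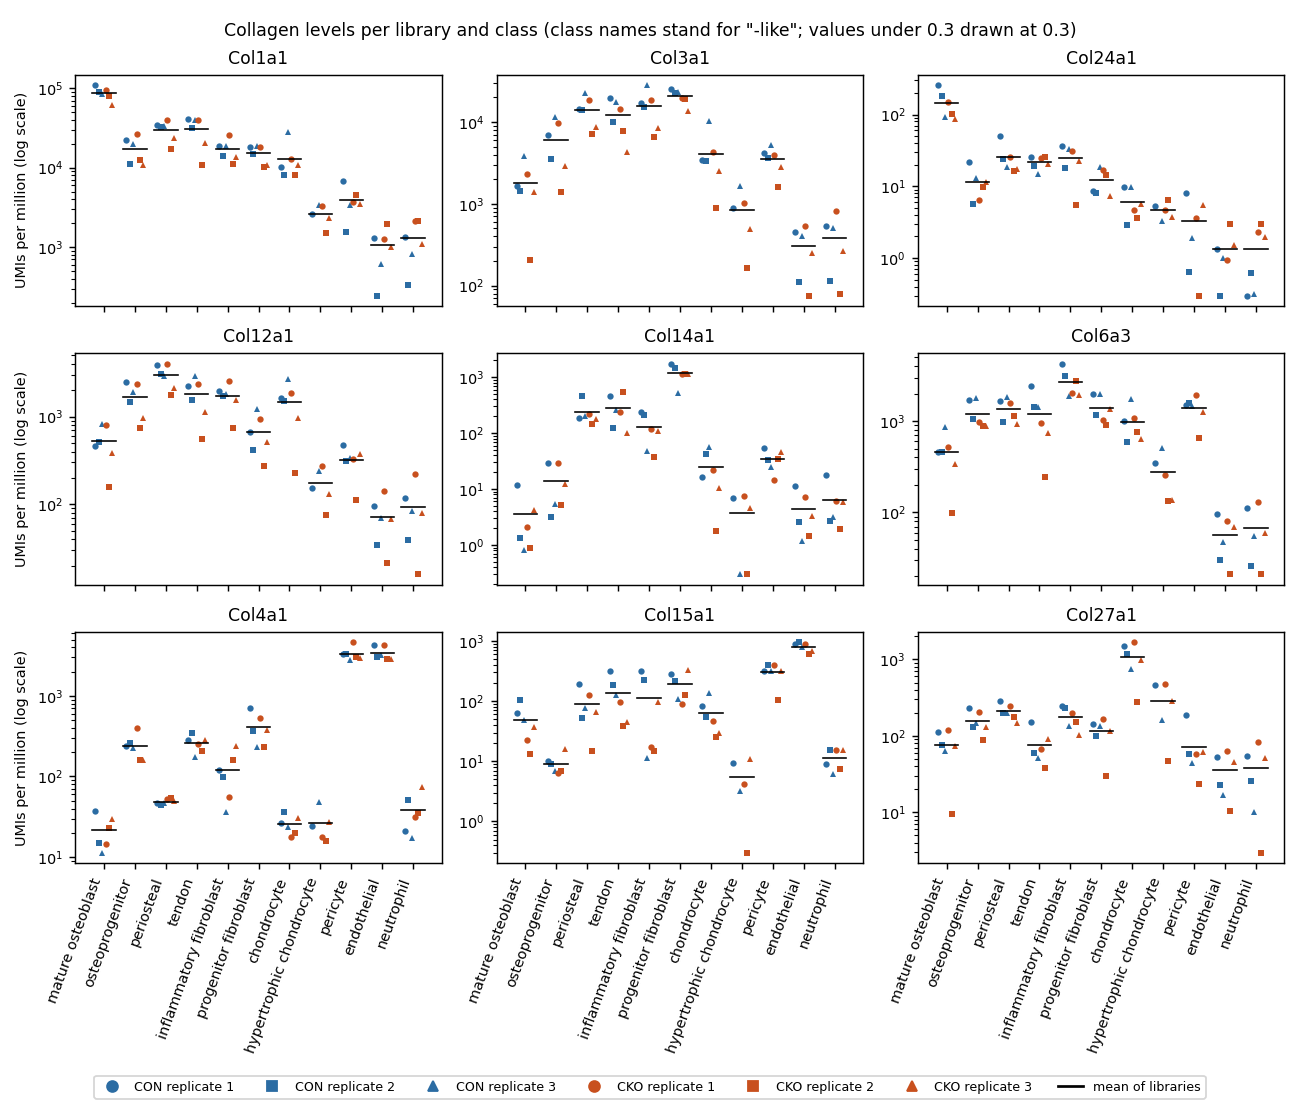
Levels of 9 collagen genes (CPM, log scale, values under 0.3 drawn at 0.3) in each library for 11 classes, with CON in blue, CKO in orange and a black line at the mean. Col1a1 and Col24a1 peak in mature osteoblast-like cells, Col15a1 in endothelial-like cells and Col27a1 in chondrocyte-like cells, and the neutrophil-like column shows the level taken as background.

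Several pairs had nearly the same profile over the 16 classes of the level map. On log2(CPM + 1), Pearson's r was 0.997 for Col6a1 and Col6a2, 0.991 for Col5a1 and Col5a2, 0.990 for Col4a1 and Col4a2, 0.987 for Col12a1 and Col16a1 and 0.987 for Col1a1 and Col1a2. These describe 16 classes that share libraries, depth and any free RNA. Col6a1 and Col6a2 are neighbours on chromosome 10 (85161 bases apart). Col3a1 and Col5a2, also neighbours (24614 bases apart on chromosome 1), had an r of 0.926. Their highest classes differed here but were the same, inflammatory fibroblast-like cells, without integration of the libraries.

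A floor under these values was taken from neutrophil-like cells, where the most abundant collagen transcripts were also counted. Free RNA is a possible source of these counts, which was not tested. Neutrophil-like cells held 1336, 331 and 821 CPM of Col1a1 in CON and 2156, 2153 and 1103 CPM in CKO. The 37 genes took 0.124% to 0.628% of their UMIs. The median of the 22 genes stood at 7.97%, 5.54% and 5.94% of its whole-library level in CON and 10.85%, 10.1% and 12.5% in CKO. The Col3a1 to Col1a1 ratio was similar in endothelial-like, macrophage-like and neutrophil-like cells of the same library. The plot of that ratio shows this for CKO replicate 2. In periosteal-like cells the ratio was 0.410 in CKO replicate 2 and 0.373 to 0.666 in the other libraries. Values of type I and III genes in endothelial-like, macrophage-like and neutrophil-like cells were read as background, a reading that was not tested. Col1a1 was higher in the endothelial-like cluster led by Gpihbp1 than in neutrophil-like cells. There it was at 6331, 736 and 1511 CPM in CON and 9120, 3548 and 3860 CPM in CKO. Col4a1 in endothelial-like cells stood well above its neutrophil-like background. Thinned to 500 UMIs a cell, 59.0% to 68.2% of endothelial-like cells had a Col4a1 UMI, against at most 2.87% of neutrophil-like cells. Before thinning the shares were 87.5% to 96.3% and 5.64% to 17.7%, at median depths of 4954 to 9966 and 1768 to 6212 UMIs.

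The remaining 15 genes stayed under 100 CPM in each class. Col6a6 (43.9 CPM, 5.73 to 86.3) and Col6a5 (11.7 CPM) had their highest mean in progenitor fibroblast-like cells, while Col6a4 (11.5 CPM, 6.96 to 19.8) had it in pericyte-like cells. These alternative type VI chains lie in a row on chromosome 9. Col25a1, a transmembrane collagen needed for muscle innervation, reached 23.7 CPM (6.36 to 51.5) in osteoprogenitor-like cells and exceeded the next class, pericyte-like cells, in 6 of 6 libraries. Col7a1, the chain of anchoring fibrils, and Col23a1, a transmembrane collagen, were highest in inflammatory fibroblast-like cells at 22.7 and 25.4 CPM. Col4a5 reached 22.9 CPM in pericyte-like cells, Col26a1 16.1 CPM in tendon-like cells and Col28a1 9.10 CPM in endothelial-like cells. Col4a3, Col4a4, Col4a6, Col17a1, Col19a1 and Col20a1 had means under 4 CPM in each class. Among them, Col20a1 was highest in hypertrophic chondrocyte-like cells at 2.68 CPM (1.87 to 3.25) and Col19a1 in non-hypertrophic ones at 1.42 CPM (0 to 4.46).

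The genotype comparison asked whether Piezo1, a mechanically gated ion channel, deleted from Col2a1-expressing cells, altered these genes within a class. Piezo1 itself was at 67.9, 43.0 and 53.6 CPM in chondrocyte-like cells of CON and at 135, 47.3 and 47.2 CPM in CKO. The groups overlapped, and as the sources used here do not say whether the 3′ tags lie within the deleted exons, this count does not check the deletion. UMIs were summed per library and class and set against each other, 3 libraries against 3, in edgeR's quasi-likelihood test.

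No collagen gene passed an adjusted p of 0.05 in any of the 8 classes tested with edgeR, and neither did any other gene (0% of 10713 to 18283 genes tested a class). Between 19 and 35 of the 37 genes passed the count filter, which keeps genes with enough UMIs in either group. At an unadjusted p under 0.05 edgeR gave 1 of 35 collagen genes in stromal-like cells (against 1.60% of all genes tested there), 3 of 30 in chondrocyte-like (2.15%), 3 of 27 in osteoblast-like (7.93%) and 0 of 29 in fibroblast-like cells (1.96%). It gave 1 of 25 in endothelial-like (5.58%), 2 of 24 in pericyte-like (4.03%), 3 of 21 in macrophage-like (1.43%) and 2 of 19 in neutrophil-like cells (2.32%). DESeq2 called 0 collagen genes in each class, among 30 genes (0.246%) called in osteoblast-like, 4 (0.0373%) in neutrophil-like, 3 each in chondrocyte-like (0.0206%) and endothelial-like (0.0216%), 1 each in fibroblast-like (0.00663%) and macrophage-like (0.00795%) and 0 in stromal-like and pericyte-like cells. Without CKO replicate 1, both the collagen genes and all genes gave more values at that unadjusted p, with 12 of 35 in stromal-like (against 11.6% of all genes), 9 of 29 in chondrocyte-like (13.9%), 9 of 27 in osteoblast-like (16.9%), 3 of 29 in fibroblast-like (8.56%) and 6 of 23 in macrophage-like cells (13.2%). In the same fits, 2 of 26 did so in endothelial-like (14.8%), 3 of 25 in pericyte-like (13.7%) and 3 of 21 in neutrophil-like cells (6.54%). Without CON replicate 1 the counts were 8 of 27 in osteoblast-like (8.90%), 5 of 29 in chondrocyte-like (3.97%), 5 of 23 in macrophage-like (2.62%) and 5 of 21 in neutrophil-like cells (3.84%), and 2 of 35 in stromal-like (1.59%), 0 of 30 in fibroblast-like (2.22%), 3 of 26 in endothelial-like (4.52%) and 3 of 25 in pericyte-like cells (3.98%). Without CON replicate 3 they ran from 0 of 22 in macrophage-like (1.10%) to 4 of 31 in fibroblast-like cells (3.16%). No collagen gene passed adjustment in these fits.

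The median log2 fold change (CKO over CON) of the collagen genes that passed the filter was -0.44 in stromal-like, -0.58 in chondrocyte-like, -0.37 in osteoblast-like and -0.33 in fibroblast-like cells. It was 0.25 in endothelial-like, -0.07 in pericyte-like, 0.11 in macrophage-like and 0.38 in neutrophil-like cells. With each library left out in turn, 5 medians kept their sign, at -0.94 to -0.22 in stromal-like, -0.94 to -0.26 in chondrocyte-like, -0.69 to -0.19 in osteoblast-like, -0.66 to -0.07 in fibroblast-like and 0.13 to 0.79 in neutrophil-like cells. The others did not. The endothelial-like median ran from -0.18 without CKO replicate 1 to 0.59 without CON replicate 1, and the macrophage-like median from -0.14 without CKO replicate 1 to 0.54 without CKO replicate 2. The pericyte-like median ran from -0.20 without CON replicate 2 to 0.04 without CKO replicate 2. The medians of all genes tested lay between -0.02 and 0.04. Values above 0 were found for 5 of 30 collagen genes in chondrocyte-like, 5 of 29 in fibroblast-like and 17 of 19 in neutrophil-like cells, beside 48.0%, 51.2% and 53.6% of all genes tested. They were found for 13 of 30 in fibroblast-like cells without CON replicate 1 and for 11 of 21 in neutrophil-like cells without CKO replicate 1.

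In chondrocyte-like cells, the class at which the Cre is aimed, all 3 CKO libraries were below all 3 CON libraries for 3 of 30 collagen genes (Col15a1, Col18a1 and Col25a1), against 4.48% of all genes there. In the non-hypertrophic cells of the class, Col18a1 averaged 18.2 CPM, near the neutrophil-like mean of 15.9 CPM. Col25a1 averaged 3.04 CPM in these cells, on 0 to 89 UMIs a library. No collagen gene had CKO above CON throughout, against 1.99%. Col15a1 was at 69.8, 53.8 and 128 CPM in CON and 41.2, 16.1 and 25.2 CPM in CKO. Its log2 fold change was -1.52 (SE 0.41, edgeR adjusted p = 1.00). Col14a1 was at 14.8, 42.4 and 53.9 CPM in CON and 19.98, 1.15 and 9.13 CPM in CKO, and the groups overlapped (log2 fold change -1.63, SE 0.62, edgeR adjusted p = 1.00). The chondrocyte-like class joins hypertrophic and non-hypertrophic cells, in a mix that varied by library. Hypertrophic cells were 2.504%, 0.08335% and 0.2181% of all cells in CON and 1.63%, 0.1995% and 5.89% in CKO. The whole class was 14.61%, 6.323% and 6.129% in CON and 11.44%, 0.4289% and 23.14% in CKO. As given above, 15 of the 22 genes were lower in hypertrophic cells. Without the hypertrophic-like cluster, 0 of 30 collagen genes were called, and their median log2 fold change was -0.46. Col15a1 was then at 81.4, 54.5 and 135 CPM in CON and 46.9, 25.3 and 29.7 CPM in CKO. The part of the class mix in these differences was not tested, and CKO replicate 2 rests on few cells.

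The main genes of that class did not separate the groups. Col27a1 had a log2 fold change of -0.30 (SE 0.62) and Col1a1 of -0.71 (SE 0.59), both with an edgeR adjusted p of 1.00. Col1a1 was at 8912, 7888 and 26816 CPM in CON and 11677, 5653 and 8843 CPM in CKO. The high CON value was that of replicate 3, without which the fold change was 0.09. Col3a1 had the same library on top (9635 CPM, against 631 to 3832 in the other 5) and a log2 fold change of -1.28 (SE 0.70, edgeR adjusted p = 1.00), which was -0.51 without that library and -1.88 without CKO replicate 1.

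In osteoblast-like cells, which join the mature and the progenitor class, CKO libraries were all below CON for 4 of 27 collagen genes (Col5a3, Col6a2, Col6a3 and Col25a1), against 12.8% of all genes there. None had CKO all above CON, against 2.22%. Col5a3 was at 94.0, 152 and 197 CPM in CON and 77.7, 41.7 and 58.9 CPM in CKO, a log2 fold change of -1.11 (SE 0.31, edgeR adjusted p = 0.59). Col8a1 was at 153, 468 and 444 CPM in CON and 218, 96.1 and 103 CPM in CKO (-1.16, SE 0.44, edgeR adjusted p = 0.60). On the other side were Col22a1 (0.92, SE 0.45, edgeR adjusted p = 0.62) and Col13a1 (0.63, SE 0.39, edgeR adjusted p = 0.66).

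The mix of the 2 classes differed between libraries. Mature osteoblast-like cells were 96 of 165, 60 of 188 and 136 of 514 osteoblast-like cells in CON and 32 of 53, 1337 of 2045 and 380 of 573 in CKO. Col5a3 and Col8a1 were also lower, and Col13a1 and Col22a1 higher, in mature osteoblast-like than in osteoprogenitor-like cells, as given above. Within the mature osteoblast-like cells alone, Col22a1 had a log2 fold change of 0.23 (SE 0.31) and Col13a1 of 0.02 (SE 0.27), while Col5a3 had -1.08 (SE 0.71) and Col8a1 -0.70 (SE 0.40). Col5a3 and Col8a1 averaged only 11.7 and 21.5 CPM in that class, beside neutrophil-like means of 8.86 and 12.4 CPM. Their fold changes there thus rest on counts near background, and CKO replicate 1 held 32 such cells. The type I genes turned direction: Col1a1 had 0.39 (SE 0.48) and Col1a2 0.47 (SE 0.48) in osteoblast-like cells, and -0.22 (SE 0.39) and -0.14 (SE 0.40) in the mature class alone. Each of these type I values lay within its SE of 0. The part of the class mix in these differences was not tested.

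**Figure D5:**
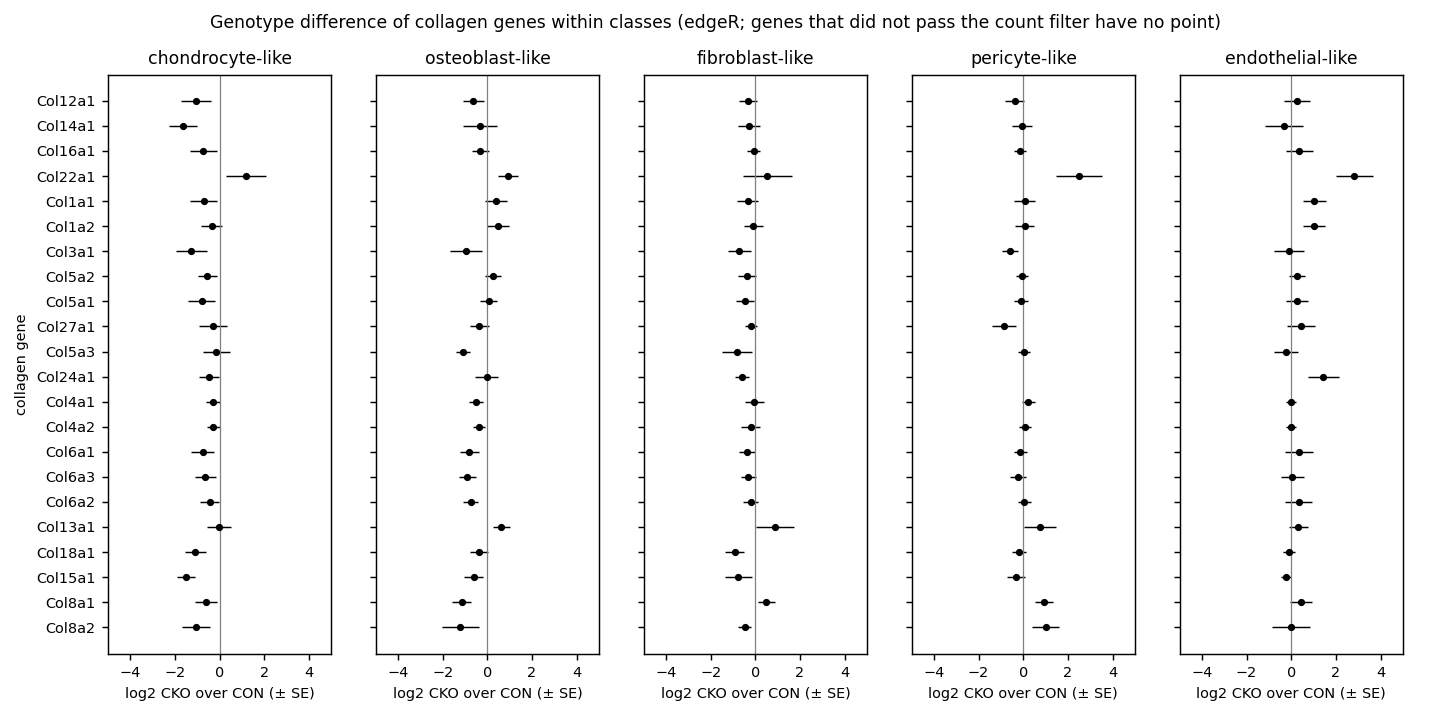
Log2 fold change (CKO over CON, point) with its SE (bar) for the 22 collagen genes in 5 classes, from edgeR with 3 libraries a group; genes that did not pass the count filter have no point. No gene passed an adjusted p of 0.05, and the points lie mostly left of 0 in chondrocyte-like and fibroblast-like cells.

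The fibroblast-like and whole stromal-like comparisons showed the same absence of calls. In fibroblast-like cells no collagen gene had separate groups in either direction, against 1.84% of genes with CKO all below and 2.98% with CKO all above. Col3a1 had a log2 fold change of -0.71 (SE 0.50), Col1a1 of -0.34 (SE 0.46) and Col12a1 of -0.33 (SE 0.40), each with an edgeR adjusted p of 1.00. Without CKO replicate 1 these were -1.13, -0.66 and -0.74. The smallest were -0.34 for Col3a1 without CON replicate 3 and, without CKO replicate 2, -0.12 for Col1a1 and -0.079 for Col12a1. The fibroblast-like class joins classes whose mix varied by library. Inflammatory fibroblast-like cells were 1.02%, 0.548% and 8.59% of all cells in CON and 5.25%, 0.718% and 0.968% in CKO. In periosteal-like cells alone, 0 of 27 collagen genes were called, with a median log2 fold change of -0.30. In stromal-like cells as a whole, 1 of 35 genes, Col19a1, had CKO all below CON (against 2.61% of genes), on 0 to 27 UMIs a library, and 0 had CKO all above (against 1.33%). Col1a1 was at 22602, 20036 and 23525 CPM in CON and 23762, 49274 and 17547 CPM in CKO. The high value was CKO replicate 2, without which the log2 fold change of 0.56 (SE 0.66, edgeR adjusted p = 1.00) became -0.05. Osteoblast-like cells were 20.4% of the cells of CKO replicate 2, against 1.73% to 7.81% elsewhere. The part of the class mix in the fibroblast-like and stromal-like differences was not tested.

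In the vessel classes the abundant genes had small fold changes. Col4a1 had a log2 fold change of -0.01 (SE 0.24) in endothelial-like and 0.21 (SE 0.29) in pericyte-like cells, Col15a1 of -0.23 (SE 0.22) in endothelial-like cells, and Col18a1 of -0.11 (SE 0.26) and -0.19 (SE 0.32). Their edgeR adjusted p-values ran from 0.82 to 0.99. No collagen gene had separate groups in either class, against 6.57% and 5.05% of genes with CKO all below and 4.94% and 4.38% with CKO all above. The largest value was that of Col22a1 in endothelial-like cells, at 2.83 (SE 0.85, edgeR adjusted p = 0.78), on 7, 15 and 2 UMIs in CON and 2, 123 and 32 UMIs in CKO. Its mean there, 3.20 CPM, was near the neutrophil-like mean of 2.49 CPM (0 to 11.2), the level taken as background.

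Type I genes had positive log2 fold changes in neutrophil-like and macrophage-like cells, where their values were read as background. In neutrophil-like cells Col1a1 had a log2 fold change of 1.28 (SE 0.55, edgeR adjusted p = 1.00) and Col1a2 of 1.27 (SE 0.50, edgeR adjusted p = 1.00), and in macrophage-like cells they had 1.14 (SE 0.48) and 1.09 (SE 0.43). In CPM, no collagen gene had separate groups in either class, against 2.35% and 2.25% of genes with CKO all above and 5.31% and 2.30% with CKO all below. In the whole libraries, the 2 type I genes made up 67.0%, 59.6% and 54.3% of the collagen UMIs described here in CON and 63.4%, 92.3% and 74.98% in CKO. As a percent of its whole-library level, neutrophil-like Col1a1 stood at 7.13, 4.69 and 6.23 in CON and 10.9, 8.68 and 9.01 in CKO. In macrophage-like cells Col1a1 stood at 6.28, 3.97 and 4.20 in CON and 5.86, 7.41 and 9.92 in CKO. The part of free RNA in these differences and in those of other classes was not tested.

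Genes that fold, process or bind collagen were compared from 3 lists. Of 19 genes for intracellular folding and modification, 13 for extracellular processing and cross-linking and 10 receptors, 0 passed edgeR's test in either direction in any of the 8 classes. In osteoblast-like cells, the medians were 0.35 for 18 folding genes, 0.11 for 11 processing genes and -0.12 for 8 receptors, beside 0.02 for all genes. In chondrocyte-like cells, they were -0.44 (19 genes), -0.14 (11 genes) and -0.41 (8 genes), beside -0.02 for all genes.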

How the data were processed

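Single-cell 3′ libraries of mouse fracture callus were used (3 CON, 3 CKO). The authors deposited raw UMI counts per gene and barcode, for which the file headers give Cell Ranger 6.1.1 in CON and CKO replicate 1 and 6.1.2 in the others, on GRCm38 per the submitters' notes, which also name Seurat. The deposited counts were not normalized. Replicate 3 of both groups used another gene list, so libraries were joined by gene ID. The collagen genes and the lists of other genes were chosen with earlier results of these data known.

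Cells with at least 500 UMIs, 200 genes and at most 20% mitochondrial UMIs were kept, and the highest doublet scores of Scrublet (scanpy 1.11.5, Python 3.11.15) were removed. Variable genes without collagens were integrated by RPCA in Seurat 5.3.0 (R 4.3.3) and clustered with leidenalg 0.10.2 (resolution 0.8), with a further round for the stromal-like cells. Marker lists gave the cluster names, and a class was used in a library with at least 10 cells. Clusters of few UMIs, of mixed markers or mostly of high doublet scores stayed unnamed. The thresholds for naming were chosen with the clusters in view and made no use of genotype.

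CPM is the UMI sum of a gene in a class and library per 1000000 UMIs. Genes described one by one are those with a mean of at least 100 CPM in a class. Genotypes were compared with edgeR 4.0.16, using TMM scaling, the filterByExpr filter and the two-sided quasi-likelihood F test, with p-values adjusted by Benjamini-Hochberg over all genes tested (threshold 0.05) and with only the 6 libraries of the class. An exact permutation test of 3 against 3 cannot go below 0.1, so none was run for single genes. The numbers of mice that the study's text gives for this experiment differ between its sections, so whether a library pools mice is not given in the sources used here, and p-values measure only the spread between libraries. Total UMIs bound the precision of each level, and PCR duplicates were collapsed by UMI. Alternatives were DESeq2 1.42.0, RLE size factors, no filter on low counts, each library left out, a replicate block, a stricter cell filter (1000 genes or more, 10% mitochondrial UMIs or less), no integration, a resolution of 1.2 and collagens kept for clustering. After the data were seen, replicate 1 of both groups, the unnamed stromal clusters, the osteoprogenitor-like cluster and the hypertrophic-like cluster were also left out. The fibroblast-like class was then also reduced to its periosteal-like cells. On simulated counts with stromal-like depths, edgeR recovered 0%, 32.5% and 77.0% of genes changed by 1, 2 and 3 on the log2 scale, and with endothelial-like depths 0%, 71.5% and 87.0%.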

Additional observations from a re-analysis of the deposited data

How the results depend on the processing

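Calls of collagen genes stayed at 0 in all 8 classes with DESeq2, RLE size factors, each library left out, the stricter cell filter, no integration, the other resolution, collagens kept for clustering, replicate 1 of both groups left out and the replicate block. Without the filter on low counts, edgeR called 2 of 37 collagen genes in chondrocyte-like cells (Col14a1 and Col15a1), beside 86 of all 29488 genes tested. In osteoblast-like cells it called 2 of 36 (Col5a3 and Col8a2), beside 269 of 26572. It called 1 of 35 in endothelial-like (88 of 27199), 1 of 37 in pericyte-like (82 of 23695) and 1 of 34 in neutrophil-like cells (37 of 22718). It called 0 of 37 in stromal-like (0 of 33414), 0 of 37 in fibroblast-like (1 of 28590) and 0 of 35 in macrophage-like cells (6 of 24864). The cause was not tested. The labels tie no replicate number to a shared animal, litter or day, though replicate 1 of both groups shared a Cell Ranger version and replicate 3 a gene list. Deviations of replicates 1, 2 and 3 correlated at 0.26, -0.08 and -0.18 in stromal-like and 0.30, -0.06 and 0.08 in endothelial-like cells, so not every pair deviated together. Pairs of unlike replicate numbers ran from -0.20 to 0.31 in stromal-like and from -0.31 to 0.25 in endothelial-like cells.

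Of 36 recomputed fold changes of single collagen genes, 27 kept their direction under every setting run. Without the osteoprogenitor-like cluster, the values of Col1a1 and Col1a2 in osteoblast-like cells became -0.22 and -0.14, in a different set of cells. Col24a1 there was -0.04 (edgeR adjusted p = 0.99), 0.29 with the replicate block and 0.72 without replicate 1 of both groups. Leaving out each library gave ranges that crossed 0 for Col1a1 in stromal-like (-0.051 to 0.82) and chondrocyte-like cells (-0.99 to 0.094), Col27a1 in chondrocyte-like cells (-0.94 to 0.18), Col24a1 in osteoblast-like cells (-0.45 to 0.83), Col18a1 in endothelial-like (-0.26 to 0.073) and pericyte-like cells (-0.36 to 0.023) and Col4a1 in endothelial-like cells (-0.19 to 0.10). The mean levels of the 22 genes in their highest class moved by less than 1 SD in 110 of 110 recomputed values, and the highest class was kept for all 22 except without integration, where Col3a1 and Col5a2 were highest in inflammatory fibroblast-like and Col6a1 and Col6a2 in tendon-like cells. With 3 libraries a group, a log2 change of 1 may go uncalled. In the simulated counts, edgeR recovered 0% of such changes at stromal-like and at endothelial-like depths. Recovery at the depths of the other classes was not tested.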

Other observations

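Of 19 genes of the collagen folding machinery, 11 were highest in non-hypertrophic chondrocyte-like cells, among them Plod2, a lysyl hydroxylase (1222 CPM, 306 to 1617), Ppib, a prolyl isomerase (1348 CPM, 1092 to 1692), and P4ha2, a prolyl hydroxylase subunit (314 CPM, 112 to 374). In 3 of these 11 the mature osteoblast-like mean came close, with 306 against 321 CPM for P4ha1, 218 against 225 for P3h1 and 196 against 208 for Crtap. Mature osteoblast-like cells were highest for 3 genes, namely Serpinh1, the collagen chaperone HSP47 (2918 CPM, 2188 to 4589), Fkbp10 (563 CPM) and Mia3, which helps load collagen into transport vesicles (173 CPM). Among enzymes outside the cell, Bmp1, which trims procollagen, was highest in mature osteoblast-like cells (613 CPM), Lox in inflammatory fibroblast-like cells (1100 CPM, 394 to 2129) and Loxl4 in hypertrophic chondrocyte-like cells (399 CPM, 79.5 to 723). Itga1, a collagen-binding integrin subunit, was at 788 CPM in pericyte-like cells and 152 CPM in endothelial-like cells. The share of all genes highest in each of these classes was not computed.

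Mature osteoblast-like cells fell into 2 clusters. The cluster led by Ptprz1 and Dmp1, a gene of osteocytes, had a mean of 217 CPM of Col24a1 (102 to 452) and 219 CPM of Col22a1 (125 to 380). The cluster led by Bglap had 114 CPM of Col24a1 (71.4 to 210) and 280 CPM of Col22a1 (209 to 356), and the ranges overlapped for both genes. An unnamed stromal cluster of 516 cells led by Gm37018 and Bmp2, with a median of 1910 UMIs a cell, held 2476 CPM of Col27a1 (2093 to 2836, 5 libraries), above the chondrocyte-like values of the same libraries.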
